A study of Mus musculus with 18 samples.

Results

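The 10 glycolytic enzymes Hk2, Gpi1, Pfkl, Aldoa, Tpi1, Pgk1, Pgam1, Eno1, Pkm2 and Ldha were followed by RNA-seq through 3 populations of mouse blood-forming cells after tamoxifen or vehicle. They were chosen by name as steps of 1 pathway, with earlier results of these data known, and Gapdh is not among them. All 10 were found in the deposited table, and they are 10 of its 14419 genes. The marrow donors were adult male mice of the C57BL/6 strain. The tamoxifen groups were MPPs (multipotent progenitors) after 1 week, and ST and LT cells (short-term and long-term blood stem cells) after 2 weeks. The corn oil groups matched them in population and duration. Each of the 6 groups held 3 libraries, called biological replicates in the series' design. The sources used here give neither the dose, nor the antibodies of the sort, nor the number of mice behind a library. MPPs differed from the other cells in both population and duration, and these cannot be told apart.

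Glycolysis breaks glucose down to pyruvate in the cytosol and yields ATP without oxygen. Hexokinase traps glucose in the cell, phosphofructokinase commits it to the pathway, and the later enzymes make ATP and pyruvate, which lactate dehydrogenase turns to lactate. Quiescent haematopoietic stem cells are known for relying on glycolysis in the poorly oxygenated marrow, where the hypoxia-inducible factor HIF-1 drives many of these genes. Tamoxifen is a selective estrogen receptor modulator, and the question of the comparison was how it acts on these stem and progenitor cells.

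The promoters of the members are shown first because HIF-1 and MYC, factors known for glycolytic genes, bind short motifs that can be read in the letters. RefSeq windows of the GRCm38.p6 build, running from 250 bases before to 50 after a start site, matched all 10 members, Pkm2 under its current symbol Pkm, with 16 windows in all. Capitals mark ACGTG and GCGTG, the core letters of the HIF-1 site, on either strand. The palindrome CACGTG, the E-box that MYC binds, contains ACGTG on both strands and is then capitalised whole. The 4 members with the steadiest rise in ST cells are shown by the first window listed for each, with Gpi1, whose window held no match.
Ldha chr7:46845554-46845853 (+): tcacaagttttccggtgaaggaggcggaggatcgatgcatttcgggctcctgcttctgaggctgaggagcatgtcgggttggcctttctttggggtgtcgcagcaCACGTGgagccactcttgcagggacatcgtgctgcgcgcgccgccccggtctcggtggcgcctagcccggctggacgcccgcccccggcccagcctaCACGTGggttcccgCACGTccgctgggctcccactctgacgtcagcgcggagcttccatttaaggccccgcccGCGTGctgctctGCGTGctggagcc
Pgk1 chrX:106186850-106187149 (+): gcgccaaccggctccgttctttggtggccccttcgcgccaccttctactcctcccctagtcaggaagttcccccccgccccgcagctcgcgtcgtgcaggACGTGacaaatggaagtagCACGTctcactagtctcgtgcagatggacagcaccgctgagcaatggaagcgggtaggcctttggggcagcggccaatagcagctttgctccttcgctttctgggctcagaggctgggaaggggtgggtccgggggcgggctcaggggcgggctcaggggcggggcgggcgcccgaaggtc
Eno1 chr4:150236458-150236757 (+): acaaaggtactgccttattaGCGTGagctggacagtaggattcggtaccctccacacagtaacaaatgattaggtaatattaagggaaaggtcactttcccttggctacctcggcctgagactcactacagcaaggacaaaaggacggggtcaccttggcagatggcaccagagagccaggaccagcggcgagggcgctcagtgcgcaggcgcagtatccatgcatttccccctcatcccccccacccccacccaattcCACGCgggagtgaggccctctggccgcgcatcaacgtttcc
Hk2 chr6:82774405-82774704 (-): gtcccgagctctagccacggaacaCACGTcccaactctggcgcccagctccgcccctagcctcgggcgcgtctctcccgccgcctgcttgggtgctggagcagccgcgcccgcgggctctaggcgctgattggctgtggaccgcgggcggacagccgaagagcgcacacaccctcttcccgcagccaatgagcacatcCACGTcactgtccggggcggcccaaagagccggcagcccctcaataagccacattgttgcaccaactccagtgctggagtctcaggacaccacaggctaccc
Gpi1 chr7:34230287-34230586 (-): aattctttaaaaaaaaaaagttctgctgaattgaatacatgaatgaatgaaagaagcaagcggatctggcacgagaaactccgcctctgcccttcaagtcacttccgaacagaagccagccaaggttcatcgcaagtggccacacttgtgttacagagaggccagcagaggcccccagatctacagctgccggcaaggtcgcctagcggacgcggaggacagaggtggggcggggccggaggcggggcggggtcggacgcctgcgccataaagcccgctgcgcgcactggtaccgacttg
The Ldha window held 5 separate stretches, and among the members it alone held CACGTG in any window, which 7.15% of all 32851 promoter windows hold. Pgk1, Eno1 and Hk2 held 2 stretches each, as GCGTG in Eno1 and as ACGTG in Pgk1 and Hk2. Of the members not shown, Pgam1 held 3 stretches in its first window and Pfkl held 1, and neither was called in ST cells. Aldoa, Tpi1 and Pkm2 held no match there, and of these Pkm2 was called higher in ST cells. The first window is only the first listed. Window 2 of Pkm2 held ACGTG at 2 places, and windows 2 and 3 of Aldoa, which overlap, held it at 1 place each. Counting 1 window per gene, 6 of the 10 members held ACGTG or GCGTG, against 43.8% of all windows. Over the 16 windows of the members, 12 held it. ACGTG alone stood in 4 members' first windows, against 19.6% of all windows. The estrogen response element GGTCANNNTGACC, where N is any base, was found in 0 of the 16 windows, against 0.07% of all. These are matches of letters, not measured binding sites, and a link to the changes with tamoxifen was not tested.

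Values below are normalised values on a linear scale, which scale whole reads by a constant of each library. Libraries held 2728800 to 5279821 reads in the listed genes, and a member rested on 55 reads (Hk2, ST oil library B) to 2532 reads (Ldha, ST tamoxifen library C). A call means an adjusted p under 0.05 in limma, with Benjamini-Hochberg adjustment over all 14419 genes, and fold changes are differences of log2(value + 1). The sort was checked against surface markers. Flt3, a receptor of multipotent progenitors, averaged 681 in MPP oil, 142 in ST oil and 83.1 in LT oil, and Slamf1, a long-term stem cell marker, averaged 0.785 in MPP oil, 19.1 in ST oil and 25.5 in LT oil. LT tamoxifen library A stood apart. Mitochondrial ribosomal RNA took 25.5% of its reads, and 17.7% to 18.7% in the other LT libraries. Its values also fell with the GC content of genes, relative to the mean of LT tamoxifen libraries B and C. The median difference was 0.22 log2 units in the 2739 genes of lowest GC content and -0.40 in the 2739 of highest. Marker genes of other cells differed in library A too. Its 11 erythroblast markers summed to 718, against 366 to 471 in the other LT libraries. Its macrophage and monocyte sum was 150, against 249 to 293, and its neutrophil sum was 23.2, against 42.1 to 93.4. The part of these differences in its values was not tested. Member calls that changed without library A are given both ways.

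In ST cells after 2 weeks of tamoxifen, Hk2, Pgk1, Eno1, Pkm2 and Ldha rose, 5 of the 10 members, against 6.01% of all genes called higher. The fold change of all 10 members was above 0, with a median of 0.53, against 0.006 over all genes. In 9 members, all but Aldoa, every tamoxifen library stood above every oil library, as was so for 14.8% of all genes. Summed over the 10 members, the normalised value was 2216 to 2346 in ST tamoxifen and 1406 to 1630 in ST oil. In bulk RNA a change in the make-up of the sorted cells and a change of RNA within each cell cannot be told apart.

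**Figure D1:**
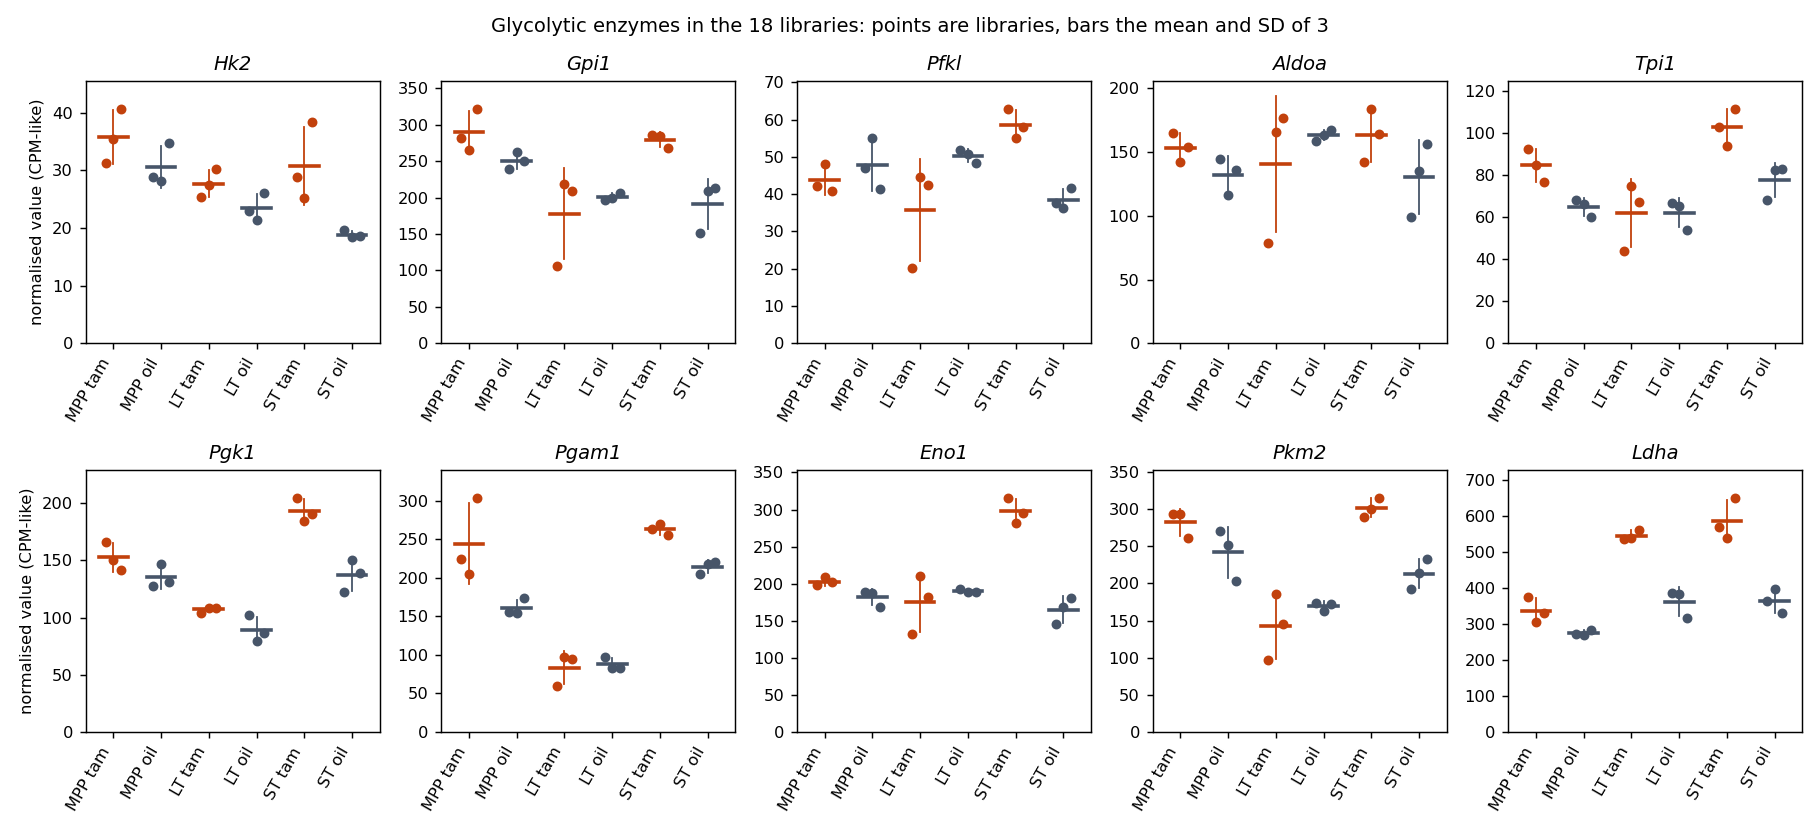
Normalised value (CPM-like, linear axis from 0) of each of the 10 glycolytic enzymes in the 18 libraries, with tamoxifen left of oil within MPP, LT and ST cells; points are libraries, and bars with lines are the mean and SD of 3. The 3 ST tamoxifen libraries stand above the 3 ST oil libraries for 9 enzymes, and LT tamoxifen library A lies low for Gpi1, Pfkl and Aldoa.

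Hk2, the inducible hexokinase that phosphorylates glucose, stood at 28.8, 25.3 and 38.4 in ST tamoxifen libraries A, B and C, and at 19.6, 18.4 and 18.6 in ST oil. Library C was the highest of the tamoxifen libraries, and the groups did not overlap. The fold change was 0.66 ± 0.19 (log2, SE; limma adjusted p = 0.0241). It missed the threshold without ST tamoxifen library C (0.154), ST oil library A (0.0560) or ST oil library B (0.0615), and over all alternatives the adjusted p was 0.0124 to 0.154. Gpi1, the isomerase that makes fructose 6-phosphate, had 286, 284 and 268 in ST tamoxifen and 152, 209 and 213 in ST oil (0.56 ± 0.18, limma adjusted p = 0.0560). Its groups did not overlap, with ST oil library A the lowest of the 6. Pfkl, the liver-type subunit of phosphofructokinase, had 62.8, 55.0 and 57.9 in ST tamoxifen and 37.7, 36.3 and 41.8 in ST oil (0.59 ± 0.20, limma adjusted p = 0.0630). Here too the groups stood clear of each other, and the value missed the threshold.

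Neither enzyme of the next steps, Aldoa or Tpi1, passed. Aldoa, the aldolase that cuts fructose 1,6-bisphosphate, had 142, 184 and 164 in ST tamoxifen and 98.9, 135 and 156 in ST oil. Its groups overlapped (0.34 ± 0.22, limma adjusted p = 0.361), with oil library A again the lowest. Tpi1, which interconverts the triose phosphates made by aldolase, had 103, 94.1 and 112 in ST tamoxifen and 68.3, 82.3 and 82.8 in ST oil (0.40 ± 0.16, limma adjusted p = 0.116).

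In the later steps, which yield ATP, Pgk1 and Eno1 rose. Pgk1, the phosphoglycerate kinase of the first ATP-making step, stood at 205, 184 and 191 in ST tamoxifen and at 123, 150 and 139 in ST oil. The lowest tamoxifen library stood above the highest oil library, and the fold change was 0.49 ± 0.12 (limma adjusted p = 0.0123, and 0.0750 without ST oil library A). Pgk1 passed in 17 of 19 alternatives, with adjusted p of 0.00347 to 0.0818. Pgam1, the phosphoglycerate mutase, had 263, 270 and 255 in ST tamoxifen and 204, 218 and 221 in ST oil (0.29 ± 0.15, limma adjusted p = 0.241). Pgam1 had the smallest fold change of the 10 although its groups did not overlap. Eno1, the enolase, had the largest, with 316, 282 and 295 in ST tamoxifen and 145, 169 and 181 in ST oil. The mean was 297 ± 17.2 in ST tamoxifen and 165 ± 18.2 in ST oil (SD, n = 3 each), and the fold change was 0.85 ± 0.13 (limma adjusted p = 0.000398). Eno1 passed in 19 of 19 alternative analyses, with adjusted p of 3.12e-07 to 0.0111.

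Pyruvate and lactate production closed the pathway. Pkm2, the gene of the muscle-type pyruvate kinase, whose isoforms M1 and M2 a gene-level value does not tell apart, stood at 290, 300 and 315 in ST tamoxifen and at 193, 214 and 232 in ST oil. The fold change was 0.50 ± 0.16 (limma adjusted p = 0.0409). This call was the least steady of the 5, and passed in 10 of 19 alternatives. It was lost without ST oil library A (0.161), ST oil library B (0.0908), or any 1 of ST tamoxifen libraries A, B and C (0.0642, 0.0975 and 0.137). Ldha, the A subunit of lactate dehydrogenase, had 570, 538 and 650 in ST tamoxifen and 365, 398 and 331 in ST oil. All 3 tamoxifen libraries stood well above oil (0.68 ± 0.12, limma adjusted p = 0.000829), and Ldha passed in 19 of 19 alternatives, with adjusted p of 4.14e-06 to 0.0129.

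The ST count depended on the spread shared with the other groups. With LT tamoxifen library A left out of the fit, 8 of the 10 members passed, against 9.28% of all genes called higher, although no ST value changed. The added members were Gpi1 (limma adjusted p = 0.000920), Pfkl (0.00509) and Tpi1 (0.0338). Without ST oil library A the members called were 2, Eno1 and Ldha, and without ST oil library B or ST tamoxifen library C they were 3 each.

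**Figure D2:**
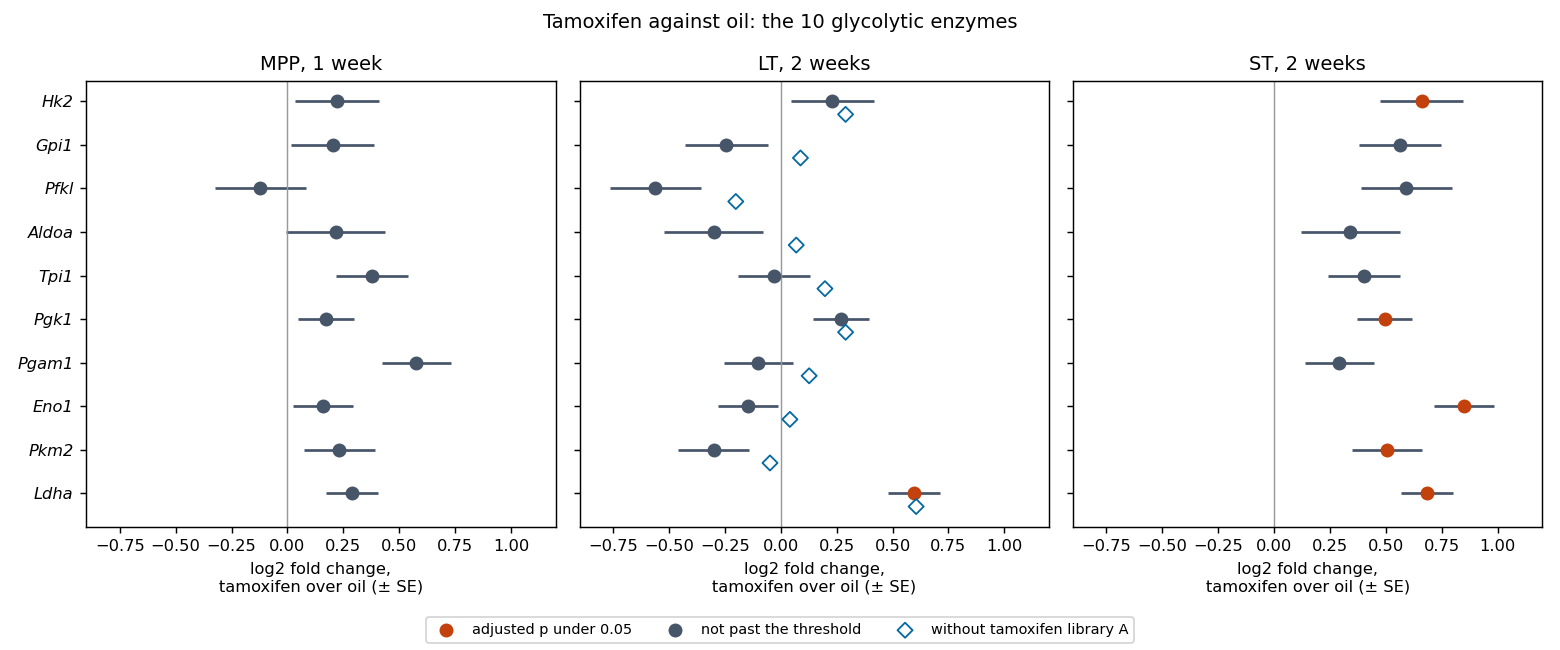
Tamoxifen over oil, log2 fold change ± SE (limma, 18 libraries), for each enzyme in MPP, LT and ST cells, with orange for an adjusted p under 0.05 and open diamonds for LT values without tamoxifen library A. All 10 points lie above 0 in ST cells, 9 in MPPs and 3 in LT cells, where Ldha alone passed.

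In LT cells Ldha was the one member that rose. Ldha had 537, 537 and 562 in LT tamoxifen and 387, 384 and 316 in LT oil, so the groups did not overlap. The mean was 545 ± 14.2 in LT tamoxifen and 362 ± 40.2 in LT oil (SD, n = 3 each), with a fold change of 0.59 ± 0.12 (limma adjusted p = 0.0159, 0.000146 to 0.207 over the alternatives). That is 1 of 10 members called higher, against 0.139% of all genes. It missed the threshold without LT oil library C (0.162) or LT tamoxifen library C (0.0507), and held at 0.0111 without LT tamoxifen library A. Pgk1 had 104, 109 and 109 in LT tamoxifen and 102, 79.3 and 86.2 in LT oil, with no overlap but no call (0.27 ± 0.12, limma adjusted p = 0.333). Groups stood apart upward in 9.04% of all genes and downward in 9.36%. Pfkl stood apart downward, with 20.1, 44.7 and 42.5 in LT tamoxifen and 51.8, 50.7 and 48.3 in LT oil (-0.56 ± 0.20, limma adjusted p = 0.191).

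In LT cells 7 members had a fold change below 0. LT tamoxifen library A was the lowest of its group in all 10 members, and its shortfall was largest in these 7. Relative to the mean of LT tamoxifen libraries B and C, library A read 0.465-fold for Aldoa, 0.473-fold for Pfkl, 0.501-fold for Gpi1, 0.592-fold for Pkm2, 0.622-fold for Tpi1, 0.624-fold for Pgam1 and 0.676-fold for Eno1. In contrast, its reading was 0.885-fold for Hk2, 0.960-fold for Pgk1 and 0.977-fold for Ldha. The longest annotated transcripts of the members hold 49.7% (Pgk1) to 57.7% (Pkm2) GC, above the lowest 2 of 5 equal GC classes of all genes. Counted from the lowest, the median gene of class 4 stood at -0.19 log2 units in library A, relative to libraries B and C. Class 4 held Gpi1 (-0.997), Tpi1 (-0.68), Pgam1 (-0.68), Hk2 (-0.18) and Ldha (-0.03). Class 5, with a median of -0.40, held Aldoa (-1.11), Pfkl (-1.08), Pkm2 (-0.76) and Eno1 (-0.57). Pgk1 (-0.06) was in class 3, with a median of 0.01. The cause of these differences within a class was not tested. With each library's trend on GC content and length removed, the median LT fold change was -0.02, Pfkl stood at -0.41 and Ldha at 0.63, and Ldha was the one member called. Without library A, 8 of 10 members stood above oil in LT cells in place of 3, the median fold change was 0.11 in place of -0.12, and Pfkl was at -0.20 and Pkm2 at -0.05. Ldha remained the one member called, against 0.146% of all genes called higher.

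**Figure D3:**
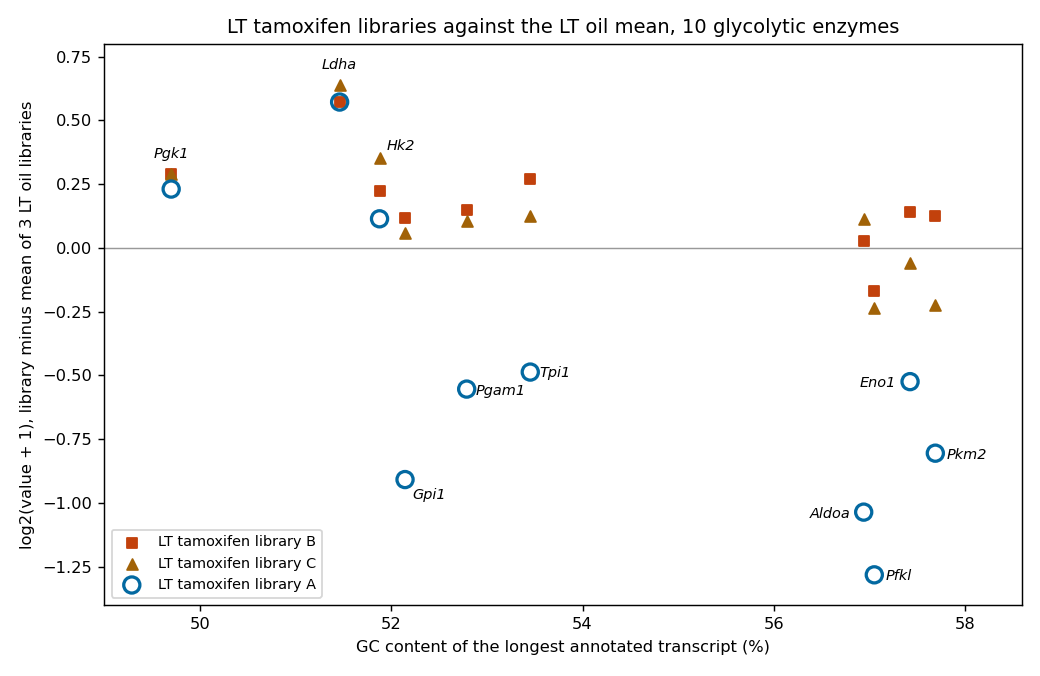
Each LT tamoxifen library minus the mean of the 3 LT oil libraries (log2(value + 1)) for the 10 enzymes, against the GC content (%) of the longest annotated transcript. Library A lies from -0.49 to -1.28 for 7 enzymes and beside libraries B and C for Ldha, Pgk1 and Hk2.

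In MPPs after 1 week, 0 of the 10 members passed, against 0.0555% of all genes called in either direction. Of the members, 9 stood above 0, with a median fold change of 0.22, against -0.000142 over all genes. Groups stood apart upward in 5 members, Gpi1, Tpi1, Pgam1, Eno1 and Ldha, as in 7.66% of all genes. Pgam1 had 224, 204 and 304 in MPP tamoxifen and 156, 154 and 173 in MPP oil (0.58 ± 0.15, limma adjusted p = 0.296). It passed when LT tamoxifen library A was left out of the fit (0.0285, with 0.104% of all genes called higher) or libraries were weighted (0.0162). Tpi1 had 92.7, 85.0 and 76.9 in MPP tamoxifen and 68.2, 66.3 and 60.3 in MPP oil (0.38 ± 0.16, limma adjusted p = 0.842). Ldha had 374, 307 and 331 in MPP tamoxifen and 271, 270 and 283 in MPP oil (0.29 ± 0.12, limma adjusted p = 0.822). Pfkl, with 42.1, 48.2 and 40.9 in MPP tamoxifen and 47.2, 55.1 and 41.3 in MPP oil, was the member below 0 (-0.12 ± 0.20). Erythroblast markers summed to 57.8 to 533 (median 108) in MPP tamoxifen and 37.4 to 70.9 in MPP oil. Neutrophil markers summed to 198 to 731 and 183 to 640 in these groups. The macrophage and monocyte sums were 496 to 683 and 404 to 457, and the stem and progenitor sums 2590 to 2616 and 2857 to 3154. The part of these markers in the MPP values of the enzymes was not tested.

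The tamoxifen effects of the populations were set against each other directly. Eno1 differed between ST and LT cells, with an effect 1.00 ± 0.19 log2 units larger in ST cells (limma adjusted p = 0.0389), 1 of 10 members against 0.0416% of all genes. In LT cells Eno1 had 132, 210 and 182 with tamoxifen and 193, 189 and 188 in oil. Leaving out LT tamoxifen library A lowered the difference to 0.81, with an adjusted p of 0.0151 and 0.513% of all genes called higher. The call did not pass in 13 of 24 alternatives, where the adjusted p reached 0.172. Pfkl had the largest difference, 1.15 ± 0.29 (limma adjusted p = 0.0900), and 0.79 without that library (0.0658). Ldha differed by 0.09 ± 0.17, so its effects in ST and LT cells were not told apart. Between MPPs and LT cells 0 members were called, against 0% of all genes. Between MPPs and ST cells 0 were called, against 0.00694%, with Eno1 at -0.69 ± 0.19 (limma adjusted p = 0.167), which passed at 0.0169 without LT tamoxifen library A, where 1.14% of all genes were called in either direction.

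Averaged over the 3 populations, Ldha (0.52 ± 0.07, limma adjusted p = 2.61e-05), Hk2 (0.37 ± 0.11, 0.0298), Pgk1 (0.31 ± 0.07, 0.00658) and Eno1 (0.29 ± 0.08, 0.0198) rose. These 4 of 10 stand against 5.47% of all genes called higher. For Eno1 the mean joined unlike effects, 0.85 in ST cells, 0.16 in MPPs and -0.15 in LT cells. Ldha and Pgk1 passed in 29 of 29 alternatives. Hk2 passed in 21, and missed the threshold with rescaling (0.0620) or without any 1 of MPP oil libraries 1 and 2, MPP tamoxifen library 3, LT oil libraries A and B, LT tamoxifen library C and ST tamoxifen library C (0.0517 to 0.0754). Eno1 passed in 26, and missed it with quantile normalisation (0.114), rescaling (0.0639) or without trend and robust settings (0.0697). Pgam1 (0.26 ± 0.09, 0.0713) and Tpi1 (0.25 ± 0.09, 0.0932) did not pass. Without LT tamoxifen library A, 8 of the 10 passed, against 7.12% of all genes, the exceptions being Aldoa (0.0815) and Pfkl (0.549).

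Without tamoxifen single enzymes differed between the populations, in directions that varied by gene. The counts of members below were not tested against the shares of all genes beside them. The comparisons in oil share their oil libraries with the tamoxifen comparisons and with each other. In ST against LT cells, Pgam1 differed most, with 204, 218 and 221 in ST oil and 97.2, 82.8 and 83.4 in LT oil (1.28 ± 0.15, limma adjusted p = 7.24e-07). Pgk1 was also higher in ST cells, with means of 137 ± 13.9 in ST oil and 89.2 ± 11.7 in LT oil (0.62 ± 0.12, limma adjusted p = 0.000427). These were 2 of 10 called higher, against 12.5% of all genes, and both passed in 19 of 19 alternatives. Pgam1, Pgk1, Pkm2 and Tpi1 stood apart upward (21.4% of all genes), and Hk2, Pfkl, Aldoa and Eno1 downward (22.7%). When LT tamoxifen library A was left out of the fit 5 members passed, against 33.4% of all genes in either direction, with Pfkl (-0.38, 0.0406) and Aldoa (-0.35, 0.0402) lower in ST cells and Pkm2 (0.32, 0.0273) higher.

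Pgam1 (0.87 ± 0.15, limma adjusted p = 0.000161), Pgk1 (0.60 ± 0.12, 0.000894) and Pkm2 (0.50 ± 0.16, 0.0313) were also higher in MPPs than in LT cells, 3 of 10 against 7.76% of all genes. The Pkm2 call passed in 10 of 18 alternatives, with an adjusted p of up to 0.196, and was lost without any 1 of MPP oil libraries 1 and 2 and LT oil libraries A, B and C. Ldha was lower in MPPs, with 271, 270 and 283 in MPP oil and 387, 384 and 316 in LT oil (-0.39 ± 0.12, limma adjusted p = 0.0208), 1 of 10 against 7.01%. It passed in 13 of 18 alternatives, and was lost without any 1 of MPP oil libraries 1 and 2 and LT oil libraries A and B, with an adjusted p of up to 0.112. Against ST cells, MPPs had more Hk2, with 28.8, 28.2 and 34.7 in MPP oil and 19.6, 18.4 and 18.6 in ST oil (0.66 ± 0.19, limma adjusted p = 0.00784), 1 of 10 against 16.8% of all genes. They had less Ldha (-0.40 ± 0.12, 0.00991) and less Pgam1 (-0.41 ± 0.15, 0.0445), 2 of 10 against 13.9%. These 3 calls between MPPs and ST cells were lost with length and GC trends removed, where the differences were 0.41 for Hk2 (limma adjusted p = 0.113), -0.09 for Ldha (0.575) and -0.09 for Pgam1 (0.652). In that fit Gpi1 (0.44, 0.0413), Aldoa (0.43, 0.0382), Eno1 (0.40, 0.00413) and Pkm2 (0.34, 0.0265) were called higher in MPPs instead, 4 of 10 against 12.3% of all genes. The Pgam1 call passed in 10 of 18 alternatives and was lost without any 1 of the 6 libraries, and the Ldha call passed in 16 and was lost without ST oil library B (0.0623). With LT tamoxifen library A left out of the fit, Gpi1 was also called higher in MPPs, against LT cells (0.32, limma adjusted p = 0.0461, with 9.6% of all genes called higher) and against ST cells (0.41, 0.00490, with 18.9%). For Ldha, ST and LT cells were not told apart in oil (0.01 ± 0.12, limma adjusted p = 0.959). Mean Pgam1 in oil was highest in ST and lowest in LT cells, with MPPs between them and the step to ST cells unsteady. Pgk1 stood above LT cells in both other populations, which were not told apart (-0.02 ± 0.12, limma adjusted p = 0.925).

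**Figure D4:**
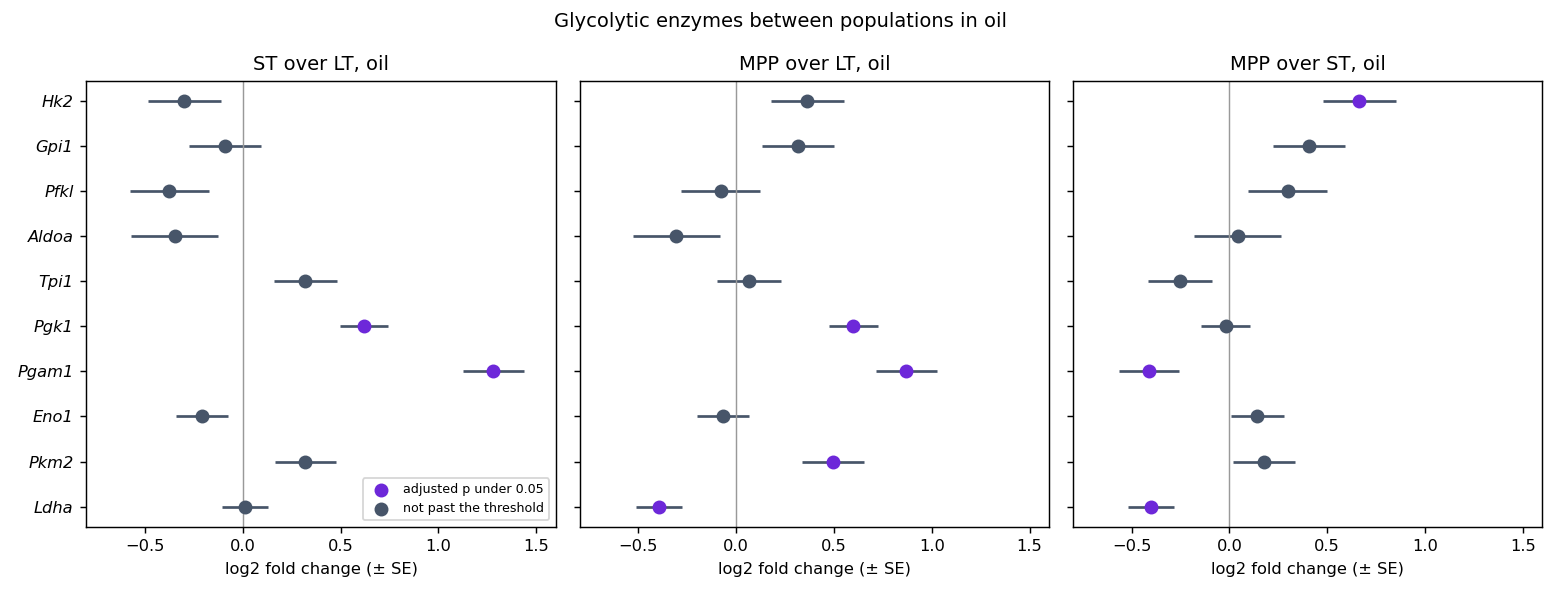
Differences of each enzyme between populations in oil, log2 fold change ± SE (limma), for ST over LT, MPP over LT and MPP over ST cells, with purple for an adjusted p under 0.05. Pgam1 and Pgk1 lie right of 0 in the ST over LT and MPP over LT panels, and Ldha lies left of 0 in both MPP panels.

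Per kilobase of the longest annotated transcript, Ldha was the most abundant member in each group, at 323 in ST tamoxifen and 201 in ST oil, 300 in LT tamoxifen and 200 in LT oil, and 186 in MPP tamoxifen and 151 in MPP oil. Hk2 was the least abundant in each group, at 3.42 (ST oil) to 6.50 (MPP tamoxifen) per kilobase. Across the 18 libraries the members did not share 1 profile. Tpi1 lay closest to the members' mean profile, with a root mean square difference of 0.121 log2 units after centring, and Ldha (0.435) and Pgam1 (0.490) lay farthest. Among 9393 genes other than the members with a mean of at least 10, those most like that mean profile were Tuba4a (0.083), Ghitm (0.132), Cdk4 (0.134), Tecr (0.139) and Hadha (0.139), where the median gene differed by 0.427. These libraries share their depth scaling and LT tamoxifen library A, so likeness is a description.

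Counts for the lists that follow in ST cells stand against 6.01% of all genes called higher and 3.6% called lower. Of 14 further glycolytic enzymes and isozymes in the table, 2 rose and 0 fell (median fold change 0.15). Pklr, the liver and red cell pyruvate kinase, had 12.4, 9.86 and 8.86 in ST tamoxifen and 2.80, 4.80 and 1.61 in ST oil (1.54 ± 0.34, limma adjusted p = 0.00497). Ldhb, the other main subunit of lactate dehydrogenase, had 76.6, 43.3 and 51.0 in ST tamoxifen and 21.2, 36.3 and 38.3 in ST oil (0.82 ± 0.23, limma adjusted p = 0.0245). In LT cells Pklr had 83.4, 51.5 and 41.3 in LT tamoxifen and 43.0, 57.7 and 44.2 in LT oil (0.23 ± 0.34, limma adjusted p = 0.827), and -0.05 without LT tamoxifen library A (0.979). The levels in LT cells were above those in ST cells in each library, and 11 erythroblast markers summed to 113 to 162 in ST tamoxifen and 61.7 to 75.2 in ST oil, where 2 of the 11 rose. The part of erythroid transcripts in the Pklr value was not tested.

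Of 8 glucose and lactate transporters, 1 rose in ST cells. Slc16a1, the lactate and pyruvate carrier MCT1, had 41.8, 54.7 and 68.4 in ST tamoxifen and 30.8, 26.0 and 28.9 in ST oil (0.90 ± 0.16, limma adjusted p = 0.00125). It stood apart upward in all 3 populations, with 53.4 ± 3.13 in MPP tamoxifen and 31.0 ± 3.13 in MPP oil, and 90.1 ± 7.88 in LT tamoxifen and 66.7 ± 7.46 in LT oil (SD, n = 3 each). Its mean effect was 0.70 ± 0.09 (limma adjusted p = 4.51e-05). In the pentose phosphate branch 1 of 9 genes rose and 1 fell. G6pdx, the enzyme that opens the branch and makes NADPH, had 100, 123 and 90.3 in ST tamoxifen and 52.5, 57.8 and 67.0 in ST oil (0.81 ± 0.14, limma adjusted p = 0.00102). Rpia, the ribose 5-phosphate isomerase, fell, with 102, 59.9 and 54.1 in ST tamoxifen and 150, 114 and 96.9 in ST oil (-0.77 ± 0.20, limma adjusted p = 0.0167), although its groups overlapped.

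At the branch points, 2 of 16 genes that set fructose 2,6-bisphosphate or the entry of pyruvate into mitochondria rose in ST cells and 1 fell. Pdk3, a kinase that inhibits pyruvate dehydrogenase, averaged 44.2 ± 7.47 in ST tamoxifen and 28.6 ± 3.56 in ST oil (0.60 ± 0.17, limma adjusted p = 0.0211). Pdp1, the phosphatase that reverses it, averaged 22.3 ± 2.38 in ST tamoxifen and 13.4 ± 2.99 in ST oil (0.71 ± 0.23, limma adjusted p = 0.0466). Brp44, a subunit of the mitochondrial pyruvate carrier, fell to 25.0 ± 2.51 in ST tamoxifen, against 40.7 ± 5.82 in ST oil (-0.68 ± 0.20, limma adjusted p = 0.0318). Among 7 genes of gluconeogenesis and side branches, Gpd2, the mitochondrial glycerol 3-phosphate dehydrogenase, was the one called (0.54 ± 0.13, limma adjusted p = 0.0115).

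Regulators and HIF-1 targets outside glycolysis did not move as 1 group in ST cells. Of 14 regulators 2 rose and 1 fell. Hif1a, the inducible subunit of HIF-1, averaged 63.6 ± 7.33 in ST tamoxifen and 44.4 ± 13.4 in ST oil (0.54 ± 0.17, limma adjusted p = 0.0430), with overlapping groups. Egln1, the prolyl hydroxylase that marks HIF-1 for destruction, averaged 33.5 ± 3.51 in ST tamoxifen and 18.9 ± 5.58 in ST oil (0.82 ± 0.19, limma adjusted p = 0.00660). Meis1, a stem cell transcription factor known to drive Hif1a, fell to 265 ± 21.3 in ST tamoxifen, against 342 ± 13.5 in ST oil (-0.37 ± 0.11, limma adjusted p = 0.0318). Of 11 hypoxia targets outside glycolysis, 1 rose and 1 fell, with a median of -0.38. Vegfa, the vascular growth factor, had 15.5, 19.6 and 25.3 in ST tamoxifen and 9.38, 13.1 and 10.7 in ST oil (0.80 ± 0.24, limma adjusted p = 0.0338). Vegfa also stood apart upward, without a call, in LT cells, at 20.4 to 21.2 with tamoxifen and 11.3 to 13.3 in oil. In MPPs it had 25.2 to 42.8 with tamoxifen and 13.1 to 21.3 in oil, again apart without a call. Groups stood apart upward in 9.04% of all genes in LT cells and 7.66% in MPPs. Ndrg1, a stress-response gene induced by hypoxia, fell to 60.1 ± 7.87 in ST tamoxifen, against 99.8 ± 18.2 in ST oil (-0.71 ± 0.18, limma adjusted p = 0.0127), and in LT cells to 37.0 ± 4.89 with tamoxifen, against 64.6 ± 11.6 in oil (-0.78 ± 0.18, 0.0472, and -0.87 at 0.0369 without LT tamoxifen library A). That is 1 of 11 hypoxia targets in LT cells, against 0.277% of all genes called lower. No other gene of the lists around glycolysis given so far was called in LT cells, and none in MPPs.

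Of 17 genes of DNA replication and mitosis 9 rose and 0 fell in ST cells, against 6.01% of all genes called higher, with a median of 0.57, and their values summed to 4566 to 4861 in ST tamoxifen and 2744 to 3325 in ST oil. Ccna2, the cyclin of S phase and mitotic entry, had 220, 229 and 242 in ST tamoxifen and 123, 132 and 102 in ST oil (0.95 ± 0.16, limma adjusted p = 0.000851). Mcm6, a subunit of the replicative helicase, had 278, 295 and 298 in ST tamoxifen and 177, 175 and 206 in ST oil (0.64 ± 0.12, limma adjusted p = 0.00169). In LT cells all 17 stood above 0 (median 0.45), but 0 were called, and the sum was 2647 to 4527 in LT tamoxifen and 1814 to 2340 in LT oil. Without LT tamoxifen library A, which held the highest sum, 0 were called, the median was 0.35 and the sums were 2647 and 2788 in LT tamoxifen. The part of cell division in the enzymes' values was not tested. Among markers of other cells in ST tamoxifen against ST oil, 0 of 10 neutrophil, 0 of 7 macrophage and monocyte and 0 of 7 B cell genes were called, while 2 of 6 stromal and endothelial genes rose and 1 of 4 T and NK cell genes fell, against the 6.01% and 3.6% of all genes. The neutrophil sum was 127 to 265 in ST tamoxifen and 135 to 317 in ST oil, the stromal sum 165 to 176 in ST tamoxifen and 112 to 137 in ST oil, and the macrophage sum 586 to 685 in ST tamoxifen and 496 to 690 in ST oil. None of these markers was without reads in either ST group, and their part in the enzymes' values was not tested. In LT cells 1 of 10 stem and progenitor markers and 1 of 4 T and NK cell genes fell, against 0.277% of all genes. No marker was called higher there. The counts were the same without LT tamoxifen library A, although its erythroblast, macrophage and neutrophil sums stood apart. The stem and progenitor sum was 1653 to 1935 in LT tamoxifen and 2276 to 2584 in LT oil. The part of these changes in the LT values of the enzymes was not tested.

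**Figure D5:**
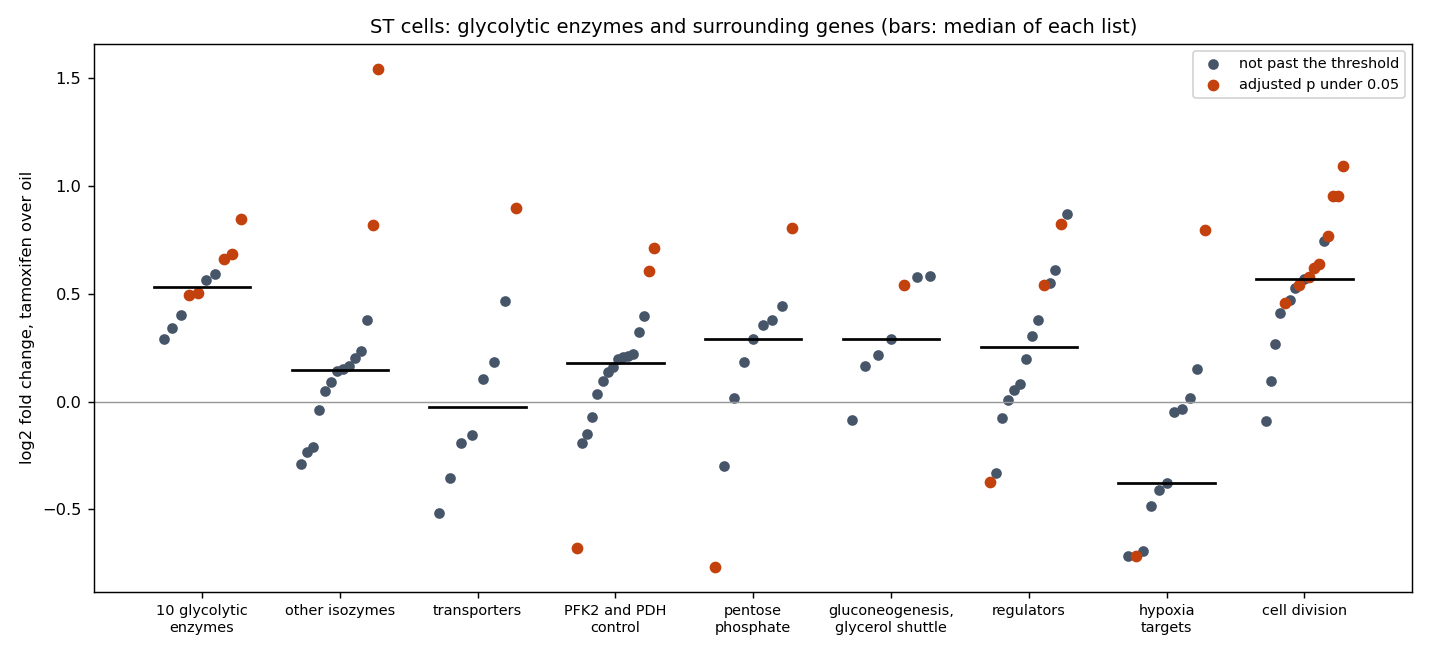
Tamoxifen over oil in ST cells, log2 fold change of each gene in the lists around glycolysis, with orange for an adjusted p under 0.05 and a bar for each list's median. The glycolytic enzymes (median 0.53) and the cell division genes (median 0.57) lie mostly above 0, and the hypoxia targets outside glycolysis mostly below (median -0.38).

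Aldoa, Tpi1, Pgk1, Pgam1, Eno1, Pkm2 and Ldha have near-identical processed pseudogenes or related copies in the mouse genome, which is background rather than a result. RSEM divides reads that fit several copies, so the levels of these genes are uncertain to that extent.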

How the data were processed

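RNA was measured in 18 libraries, 3 for each of 6 groups. Per the labels' protocols, cDNA was amplified from total RNA, sonicated and ligated to adaptors. The submitters' processing notes name RSEM 1.17, limma, cutadapt and Picard, and the build NCBIM37. The authors deposited a normalised signal for 14419 genes, with a scaling that the sources used here do not give. Within a tolerance of 0.001 read, 100% of values were whole reads plus 0.5 read times a library constant. These recovered reads may be rounded estimates.

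Tests used limma 3.58.1 (R 4.3.3) with trend and robust settings on log2(value + 1), which understates changes of low genes, in 1 fit with 6 group means and 12 residual degrees of freedom. No gene was filtered out. Alternatives included edgeR 4.0.16 and DESeq2 1.42.0 on recovered reads. GC content and length came from GENCODE M21 transcripts. The fit was tested on simulated data. All members were named, and from each other list up to 3 called genes by smallest p. The members and lists were chosen with earlier results of these data known. Nothing says that libraries of a group came from separate mice, so p-values measure the spread between libraries. Amplified reads without molecular identifiers are not independent molecules.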

Additional observations from a re-analysis of the deposited data

Results flagged for a closer look

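The tamoxifen effect on Eno1 was 1.00 log2 units larger in ST than in LT cells by the test of the difference itself (limma adjusted p = 0.0389, 0.00151 to 0.172 over the alternatives). In LT tamoxifen library A Eno1 read 0.676-fold of the mean of libraries B and C, and without it the difference was 0.81 (0.0151).

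Pfkl stood above oil in all ST tamoxifen libraries and below oil in all LT tamoxifen libraries, a difference of 1.15 log2 units. The test of that difference did not pass (limma adjusted p = 0.0900, 0.0302 to 0.247 over the alternatives). Without LT tamoxifen library A, which read 0.473-fold of libraries B and C, the difference was 0.79 (0.0658).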

How the results depend on the processing

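The ST call count of 5 was 3 with quantile normalisation or rescaling without mitochondrial genes, and 8 with length and GC trends removed or LT tamoxifen library A left out of the fit, and its median was 0.36 with quantile normalisation. The LT count of 1 was 0 in fits of only the groups compared or without trend and robust settings, and its median was 0.038 with library weights. The MPP count of 0 was 1 with library weights or without LT tamoxifen library A. For the mean effect, 4 became 2 with rescaling and 8 with library weights. For ST minus LT, 1 became 0 with quantile normalisation, rescaling, only the groups compared, no trend or edgeR, and 2 with DESeq2, with a median of 0.37 under library weights. The MPP minus LT median was 0.17 with library weights. For MPP minus ST, 0 became 1 with library weights, DESeq2, trend removal or without LT tamoxifen library A, and the median was -0.17 with quantile normalisation. In oil, ST against LT gave 4 with trend removal and 5 without LT tamoxifen library A, MPP against LT gave 2 without trend, and the MPP against ST median was -0.17 with quantile normalisation and 0.31 with trend removal. The causes of these shifts were not tested.

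Leaving out 1 library at a time gave 0 to 1 calls in LT cells, 2 to 5 in ST cells, 3 to 8 for the mean effect, 0 to 3 for ST minus LT, 2 to 4 for MPP against LT and 1 to 2 for MPP against ST. Medians were -0.26 to 0.11 in LT cells, 0.32 to 0.69 for ST minus LT and 0.12 to 0.59 for MPP minus LT. Directions turned in LT cells for Gpi1 (-0.43 to 0.088), Aldoa (-0.51 to 0.069), Tpi1 (-0.18 to 0.20), Pgam1 (-0.22 to 0.13) and Eno1 (-0.29 to 0.041), and for Pfkl in the mean effect (-0.097 to 0.089). Library weights turned LT values of Gpi1 (0.016), Tpi1 (0.13) and Pgam1 (0.059) and the mean value of Pfkl (0.052). Tpi1 in LT cells was also 0.0027 with edgeR, 0.0094 with DESeq2 and 0.037 with trend removal, where the mean value of Pfkl was 0.0093. The ST minus LT value of Ldha was -0.035 with quantile normalisation. Trend removal and the fit without LT tamoxifen library A were chosen after seeing the data.

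Deviations of same-numbered tamoxifen and oil libraries of a population had correlations of -0.03 to 0.13. Those of same-lettered LT and ST libraries of 1 treatment were 0.05 to 0.14, and -0.05 to 0.15 where population and treatment both differed. Such correlations cannot tell whether libraries of the same number or letter share an origin. The replicate block gave 6 calls in ST cells, adding Gpi1 (0.0365), and 1 in LT cells, 0 in MPPs, 4 for the mean effect, 1 for ST minus LT and 2 for ST against LT in oil.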
